A study of Mus musculus with 6 samples.

Results

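The genes considered here are 39 genes of brown and white adipocytes, chosen by name and read in whole aorta, which can carry fat around the vessel. Each probe set, the group of oligonucleotides that reads a single transcript, was taken where the platform annotation gave it the symbol of a listed gene and no other. This gave 65 probe sets for 34 of the 39 genes, out of 18194 genes named on the array. Total RNA of whole aorta had been hybridised to 6 single-colour arrays, 3 from C57BL/6J wild type mice and 3 from C57BL/6J apoE-/- mice, all 32 weeks old. Mice without apolipoprotein E clear lipoprotein remnants poorly and develop atherosclerosis. The labels give no sex, diet or number of animals per array, and do not say whether fat was cleaned from the vessels. Nothing in them says that replicates came from separate animals, so each p-value speaks only of the spread among these 6 arrays, and that spread may be technical.

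The aorta lies in a sleeve of perivascular fat, which along the thoracic aorta of the mouse resembles brown fat. Brown adipocytes burn fatty acids in mitochondria that uncoupling protein 1 (Ucp1) makes leaky to protons, so that the energy leaves as heat. White adipocytes store fatty acids as triglyceride in a large droplet, release them by lipolysis and secrete hormones such as adiponectin and leptin. Both kinds share the enzymes of triglyceride synthesis and breakdown, so most of the listed genes of storage do not belong to white fat alone.

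The listed genes fall into 10 thermogenic genes, 24 genes of white fat and lipid storage, and 5 enzymes of mitochondrial fatty acid oxidation. Cpt1b had only a probe set that carried several symbols, and Adrb3, Cfd, Plin1 and Acsl1 were not analysed here. Lep, the leptin gene, lay under the filter on low intensity (a mean of 124 units over all arrays). The remaining 33 genes were tested, 8 thermogenic, 20 of white fat and storage, and 5 of oxidation. The 6 arrays had been scaled to a common level, with medians of 178 to 195.5 units, and Apoe itself read 4309 to 5686 units on wild type and 56.3 to 462.1 units on apoE-/- arrays. All 10 defining genes of smooth muscle tested read at least 596.2 units on every array, and Myh11 read 10116 to 13643 units. The ratio of 3′ to 5′ signal of the beta-actin control lay at 1.15 to 1.16 on apoE-/- and 1.16 to 1.21 on wild type arrays. For the Gapdh control that ratio overlapped between genotypes, at 0.71 to 0.82 on apoE-/- and 0.74 to 0.77 on wild type arrays. An intensity is a level in the authors' units, and levels of different genes are not compared, because probes differ in brightness.

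Promoter sequence is shown for 5 members that stand for the patterns described below. Ucp1, Cox7a1 and Adipoq had the same array highest, Mlxipl was lower on every apoE-/- array, and Sncg was the member that rose. The 250 bases before each start come from RefSeq (GRCm38.p6), which had an entry for 24 of the 34 measured genes. Capitals mark a CCAAT box or the E-box CACGTG, a core of the elements bound by the product of Mlxipl, on either strand.
Ucp1 (chr8:83290098-83290347, plus strand): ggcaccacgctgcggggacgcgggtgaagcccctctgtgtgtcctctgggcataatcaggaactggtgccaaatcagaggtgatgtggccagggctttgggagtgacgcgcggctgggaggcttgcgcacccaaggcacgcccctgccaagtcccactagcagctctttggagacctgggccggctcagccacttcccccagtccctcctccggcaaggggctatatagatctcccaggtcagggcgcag
Cox7a1 (chr7:30183921-30184170, plus strand): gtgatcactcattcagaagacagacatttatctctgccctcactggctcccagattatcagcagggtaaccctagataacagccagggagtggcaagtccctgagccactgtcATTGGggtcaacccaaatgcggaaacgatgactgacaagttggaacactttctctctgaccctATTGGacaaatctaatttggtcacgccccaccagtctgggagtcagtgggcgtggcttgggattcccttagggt
Adipoq (chr16:23146286-23146535, plus strand): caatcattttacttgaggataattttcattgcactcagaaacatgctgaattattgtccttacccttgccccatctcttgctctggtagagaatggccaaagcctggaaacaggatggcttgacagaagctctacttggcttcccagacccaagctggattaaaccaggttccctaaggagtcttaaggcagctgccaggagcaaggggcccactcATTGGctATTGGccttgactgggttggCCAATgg
Mlxipl (chr5:135089640-135089889, plus strand): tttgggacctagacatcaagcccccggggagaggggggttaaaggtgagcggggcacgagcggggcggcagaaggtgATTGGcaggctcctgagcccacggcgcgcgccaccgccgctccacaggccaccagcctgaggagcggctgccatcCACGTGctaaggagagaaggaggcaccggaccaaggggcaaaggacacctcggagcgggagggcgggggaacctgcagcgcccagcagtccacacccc
Sncg (chr14:34374670-34374919, minus strand): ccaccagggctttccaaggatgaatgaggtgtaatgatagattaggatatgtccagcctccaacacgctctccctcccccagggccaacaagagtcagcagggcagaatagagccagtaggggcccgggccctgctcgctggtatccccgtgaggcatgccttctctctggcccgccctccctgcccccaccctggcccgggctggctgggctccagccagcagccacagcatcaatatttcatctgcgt
The CCAAT box was found in 5 of 28 member windows, against 33.9% of all 32851 windows of that length. It occurred 3 times before Adipoq, 2 times before Cox7a1 and once at the Mlxipl start shown, and was not found before Ucp1 and Sncg. CACGTG was found in 2 member windows, before Lipe and at the Mlxipl start shown, against 6.02% of all windows. The direct repeat of AGGTCA with a single spacer base, the element of PPAR receptors, and the extended nuclear receptor site AAGGTCA were found in no member window, against 0.0335% and 4.08% of all. The cyclic AMP response element TGACGTCA was found before Dio2 only, against 1.55% of all windows. TATAAA was found before Cebpa and Dio2 (12.4% of all windows) and TTGCNNAA before Cidec, Dio2 and Lep (9.56%). All 7 motifs were searched on both strands, and a match is a description of the letters only.

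The main feature of the fat genes was a single bright array. Of the 33 genes tested, 30 read highest on wild type replicate 2, against 18.9% of all 13052 genes tested. Prdm16 read highest on wild type replicate 3, and Lpl and Sncg on apoE-/- replicate 1. The 33 intensities summed to 167735 units on wild type replicate 2, to at most 119238 units on any apoE-/- array, and to as little as 88676 units on another wild type array. The highest wild type array was 2.07 times the lowest at the median member, against 1.23 times at the median of all genes. Among apoE-/- arrays that ratio was 1.44 for the members and 1.24 for all genes. There the brightest array was replicate 1, for 26 of 33 members. In whole tissue, fewer fat cells and less RNA per fat cell cannot be told apart.

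**Figure D1:**
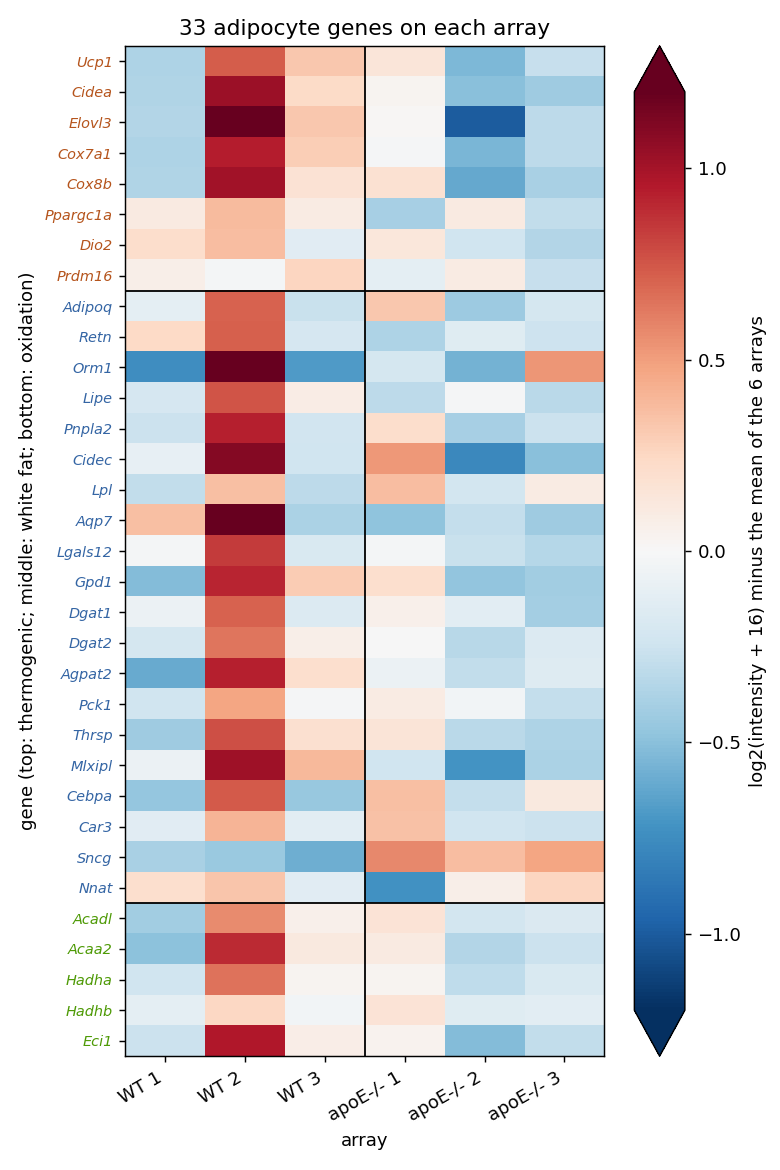
Colour shows log2(intensity + 16) on each array (columns, WT for wild type) minus that gene's mean over the 6 arrays, for 33 genes (rows) in 3 groups; colours end at 1.2 either way. The column of wild type replicate 2 is red for nearly every gene, and 30 of 33 genes are highest there.

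Against that spread, 32 of the 33 genes did not pass the test of genotype. The limma fit called 1 member higher in apoE-/- aorta and 0 lower, with p-values adjusted by Benjamini-Hochberg across the whole table and a threshold of 0.05. Among all genes tested, 3.65% were called, 3.19% higher and 0.467% lower. At an unadjusted p under 0.05 there were 4 members of 33 (12.1%), against 18.4% of all genes. Fold changes are on the scale of log2(intensity + 16), which understates those of dim genes. The estimate was lower in apoE-/- for 30 of 33 members (90.9%), against 58.8% of all genes, with a median log2 change of -0.34 for members and -0.05 for all genes. Without wild type replicate 2 it was lower for 21 of 33 members, with a median of -0.10 against -0.06 for all genes, and 9 members had the opposite sign.

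**Figure D2:**
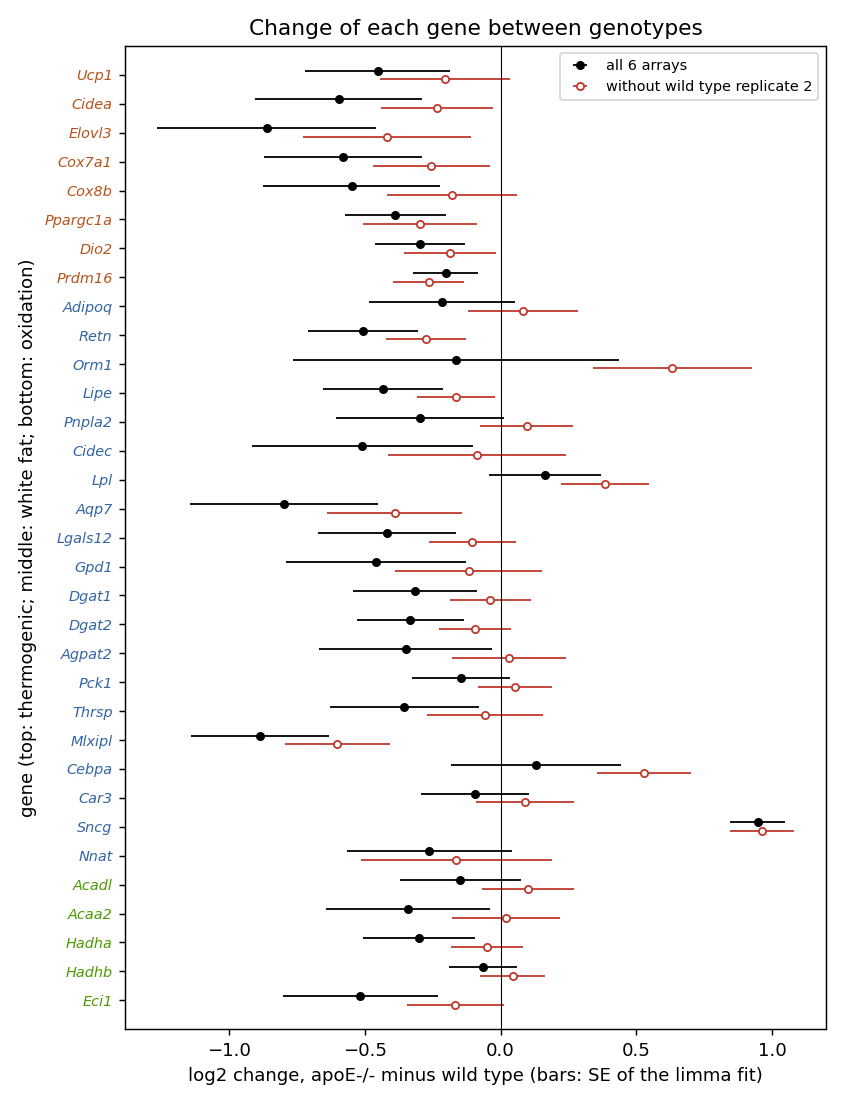
Points give the log2 change of each gene from wild type to apoE-/- and bars the SE of the limma fit, with all 6 arrays (black) and without wild type replicate 2 (red, open). Most black points lie left of 0 and most red ones nearer to it, while Sncg stays at 0.95 and 0.96.

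The genes that do the work of heat production had the same highest and lowest arrays. Ucp1 read 5194, 11092 and 8435 units on wild type replicates 1, 2 and 3 and 7408, 4604 and 5538 units on apoE-/- replicates 1, 2 and 3. The groups overlapped, with replicate 1 the lowest wild type and the highest apoE-/- array. The log2 change was -0.45 ± 0.27 (SE, limma adjusted p = 0.416). Cidea, a lipid droplet protein of brown fat, read 3535, 9254 and 5319 units in wild type and 4635, 3197 and 3379 units in apoE-/- aorta. Its log2 change was -0.60 ± 0.31 (limma adjusted p = 0.346). Elovl3, which elongates fatty acids in brown fat, read 441.1, 1439 and 715.1 units in wild type and 574.3, 276.4 and 452.6 units in apoE-/- aorta. Its wild type replicate 2 value was 2.01 times the next array, and the log2 change was -0.86 ± 0.40 (limma adjusted p = 0.301).

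Subunits of cytochrome oxidase that are particular to muscle and brown fat shared their highest and lowest arrays with Ucp1. Cox7a1 read 1236, 3092 and 1966 units in wild type and 1579, 1092 and 1287 units in apoE-/- aorta (means 2098 ± 935 and 1319 ± 245 units, SD, n = 3). Cox8b read 3789, 9837 and 5492 units in wild type and 5526, 3171 and 3720 units in apoE-/- aorta (means 6373 ± 3119 and 4139 ± 1232 units, SD, n = 3). Both had wild type replicate 2 highest and apoE-/- replicate 2 lowest, as did Cidea and Elovl3. The log2 changes of Cox7a1 and Cox8b were -0.58 ± 0.29 and -0.55 ± 0.33 (SE, limma adjusted p = 0.335 and 0.420). Heart and skeletal muscle also make both subunits. The 13 skeletal muscle genes read summed to 40046 units on wild type replicate 3 and to 3853 and 3961 units on replicates 1 and 2. On apoE-/- arrays they summed to 2289 to 2601 units. The filter took the mean over all arrays, so genes such as Myh4 and Tnnc2 were kept only through wild type replicate 3. They read 4006 and 4616 units there and at most 51.3 and 50.6 units elsewhere. The height of that sum was thus partly fixed by the filter. Of the 13, 1 was called lower, Casq1 (log2 change -1.08). It read 1934, 1699 and 2564 units in wild type and 993.6, 1007 and 862.5 units in apoE-/- aorta. This was a large part of every sum but the highest. The part of muscle in the Cox7a1 and Cox8b values was not tested. The 7 heart muscle genes read summed to 3086 to 3608 units in wild type and 2123 to 3581 units in apoE-/- aorta, with 1 called lower, Ryr2 (log2 change -0.68, limma adjusted p = 0.0489). With single arrays left out Ryr2 passed only without apoE-/- replicate 2, with adjusted p of 0.0968 to 0.168 without each of the others. It did not pass either with median centring, without the filter, without the intensity trend or over all kept probe sets (adjusted p = 0.0509, 0.0753, 0.0811 and 0.0563).

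The regulators of the thermogenic programme stood out less on the bright array. Wild type replicate 2 was 2.14 to 3.26 times replicate 1 for Ucp1, Cidea, Elovl3, Cox7a1 and Cox8b, but 1.22 times for Ppargc1a, 1.12 times for Dio2 and 0.94 times for Prdm16. Ppargc1a, the coactivator that drives mitochondrial biogenesis, was dim at 267.5, 326.9 and 266.9 units in wild type and 184.1, 268.6 and 199.1 units in apoE-/- aorta. Only apoE-/- replicate 2 reached the wild type values (log2 change -0.39 ± 0.19, SE, limma adjusted p = 0.310). Dio2, which activates thyroid hormone, read 1742, 1957 and 1373 units in wild type and 1661, 1277 and 1181 units in apoE-/- aorta (limma adjusted p = 0.383). Another Dio2 probe set read 583.4 to 801.3 units in wild type and 412.4 to 499.1 units in apoE-/- aorta without overlap, and did not pass either (log2 change -0.59, limma adjusted p = 0.0799 over probe sets). Prdm16, a transcription factor of brown fat that other cells also make, read 3276, 3067 and 3736 units in wild type and 2868, 3336 and 2569 units in apoE-/- aorta (limma adjusted p = 0.418). As a group, 0 of 8 thermogenic genes passed in the limma fit, and 0 had an unadjusted p under 0.05. Their median log2 change was -0.50, and -0.24 without wild type replicate 2, with all 8 estimates negative both ways.

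**Figure D3:**
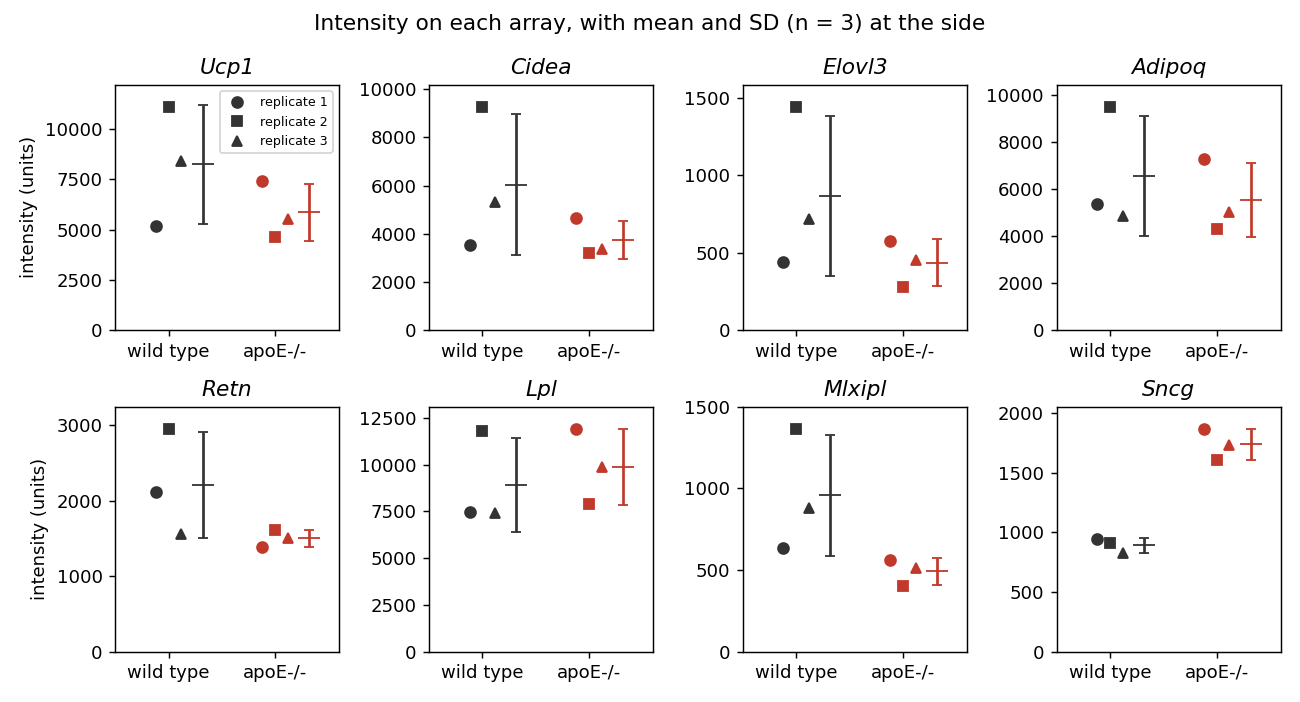
Each panel shows a gene's intensity in units on the 3 wild type (dark) and 3 apoE-/- (red) arrays, marked by replicate number. The mean and SD (n = 3) stand beside them, and the labels do not pair same-numbered arrays. Wild type replicate 2 is the highest dark point for Ucp1, Cidea, Elovl3, Adipoq, Retn, Lpl and Mlxipl, and only Mlxipl and Sncg have groups that do not overlap.

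Hormones and other secreted proteins of fat cells had overlapping genotypes. Adipoq, the adiponectin gene, read 5361, 9465 and 4822 units in wild type and 7283, 4273 and 5013 units in apoE-/- aorta. The log2 change was -0.22 ± 0.27 with all arrays (SE, limma adjusted p = 0.714) and 0.08 without wild type replicate 2. Retn, the resistin gene, read 2114, 2949 and 1557 units in wild type and 1382, 1616 and 1501 units in apoE-/- aorta. Its apoE-/- values were close together (1500 ± 117 units, SD, n = 3) and a single one of them lay above the lowest wild type value (log2 change -0.51 ± 0.20, limma adjusted p = 0.234). Orm1, an acute-phase plasma protein that fat also makes, read 1490 units on wild type replicate 2, which was 2.25 times the next array. It read 264.4 and 276.7 units on the other wild type arrays and 389.3, 302.1 and 663.4 units in apoE-/- aorta, and its log2 change went from -0.17 ± 0.60 to 0.63 without wild type replicate 2 (adjusted p = 0.914 and 0.324). Lep was at 15.6, 72.6 and 90.9 units in wild type and 48.0, 10.2 and 24.9 units in apoE-/- aorta, too dim to be tested.

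The enzymes and droplet proteins of lipolysis followed the bright array. Pnpla2, the lipase that takes the first fatty acid from triglyceride, read 2815, 6464 and 2864 units in wild type and 3910, 2551 and 2810 units in apoE-/- aorta. Its log2 change was -0.30 ± 0.31 with all arrays (SE, limma adjusted p = 0.653) and 0.10 without wild type replicate 2. Lipe, hormone-sensitive lipase, read 1192, 2324 and 1462 units in wild type and 1100, 1359 and 1090 units in apoE-/- aorta (adjusted p = 0.346). Cidec, which fuses lipid droplets, ranged from 980.6 to 2498 units in wild type and from 668.8 to 1664 units in apoE-/- aorta, with replicates 2 and 1 the highest. The glycerol channel Aqp7 read 349.8, 645.0 and 203.2 units in wild type and 187.5, 217.2 and 196.2 units in apoE-/- aorta. The log2 change of Aqp7 was -0.80 ± 0.35 (limma adjusted p = 0.266), and its other probe set gave -0.31. Lgals12, a galectin of the lipid droplet, ranged from 385.8 to 800.3 units in wild type and from 344.2 to 434.3 units in apoE-/- aorta.

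Lpl, the lipase that frees fatty acids from circulating lipoproteins, had a positive estimate. It read 7488, 11816 and 7413 units in wild type and 11901, 7876 and 9843 units in apoE-/- aorta (log2 change 0.16 ± 0.21, SE, limma adjusted p = 0.717). A second probe set read 1559, 2810 and 1538 units in wild type and 4035, 2354 and 3334 units in apoE-/- aorta, so that wild type replicate 2 exceeded the lowest apoE-/- array. Its log2 change was 0.74 ± 0.26 (limma adjusted p = 0.203 over probe sets). Macrophages also make Lpl. The 11 macrophage genes read summed to 15320 to 16634 units on wild type and 54574 to 80931 units on apoE-/- arrays, and 10 of them were called higher, among them Cd5l and Gpnmb (log2 changes of 5.29 and 3.61). None of the 11 was at 0 on any array, Trem2 being the dimmest at 17.0 to 34.0 units in wild type, under the level of the filter, and their part in the Lpl values was not tested.

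Triglyceride synthesis genes had no called member either. The enzymes Gpd1, Agpat2, Dgat1 and Dgat2 read 1.73 to 2.93 times as high on wild type replicate 2 as on replicate 1. Agpat2 read 2077, 6087 and 3644 units in wild type and 3019, 2584 and 2849 units in apoE-/- aorta. Its log2 change was -0.35 ± 0.32 with all arrays (SE, limma adjusted p = 0.608) and 0.03 without wild type replicate 2. Dgat2, which adds the last fatty acid, read 3133, 5661 and 3807 units in wild type and 3624, 2869 and 3244 units in apoE-/- aorta (adjusted p = 0.421). Thrsp, a regulator of lipogenesis, read 5352, 12326 and 8236 units in wild type and 8040, 5774 and 5595 units in apoE-/- aorta (adjusted p = 0.540). Gpd1 ranged from 1800 to 4906 units in wild type and 1865 to 2993 units in apoE-/- aorta, Dgat1 from 1075 to 1989 and 906.9 to 1260 units. Pck1 ranged from 2047 to 3363 and 1980 to 2594 units. Log2 changes of Gpd1, Dgat1 and Pck1, the last an enzyme that feeds glycerol phosphate, were -0.46, -0.31 and -0.15. Cebpa, a transcription factor of adipocyte differentiation, read 1737, 4012 and 1748 units in wild type and 3101, 1976 and 2615 units in apoE-/- aorta. The Cebpa log2 change was 0.13 ± 0.31 with all arrays and 0.53 without wild type replicate 2 (adjusted p = 0.862 and 0.189).

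On the brightest probe set of each gene, Mlxipl was the only member with every apoE-/- array below every wild type array. Dimmer kept probe sets of Dio2, Gpd1 and Hadhb had the same non-overlap, and none of them passed in the limma fit over probe sets (adjusted p = 0.0799, 0.187 and 0.246). Mlxipl encodes ChREBP, the factor that switches on lipogenic genes when glucose is plentiful. It read 635.2, 1364 and 876.9 units in wild type and 562.6, 400.0 and 510.7 units in apoE-/- aorta (959 ± 371 and 491 ± 83.1 units, SD, n = 3). The gap between the nearest arrays, 635.2 and 562.6 units, was small against the spread within wild type. Its log2 change was -0.89 ± 0.26 (SE, limma adjusted p = 0.112). It passed without wild type replicate 1 (log2 change -1.14, limma adjusted p = 0.0497), where 0.115% of all genes were called lower. With each of the other 5 arrays left out, adjusted p lay between 0.178 and 0.255. Non-overlap in this direction was common, at 13.7% of all genes tested and 1 of 33 members.

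Sncg was the member that rose. It encodes gamma-synuclein, a small protein of adipocytes and peripheral neurons. Sncg read 942.9, 911.6 and 823.2 units in wild type and 1866, 1610 and 1734 units in apoE-/- aorta (893 ± 62.1 and 1737 ± 128 units, SD, n = 3). The groups were far apart, and wild type replicate 2, the bright array of the other members, was not the highest wild type array. The log2 change was 0.95 ± 0.10 (SE, limma adjusted p = 0.00234), and adjusted p stayed between 0.00217 and 0.0203 in the 15 alternatives tried. Of all genes tested, 11.0% had all apoE-/- arrays above all wild type arrays. The 6 genes of nerve and Schwann cells read summed to 2835 to 3282 units in wild type and 2780 to 3493 units in apoE-/- aorta and held 0 called genes in the limma fit and 0 at an unadjusted p under 0.05. Of these 6 genes 3 had positive and 3 negative estimates. Dbh had the smallest p of them (log2 change 0.40 ± 0.18, limma adjusted p = 0.275), and Prph had the most negative estimate (log2 change -0.37, limma adjusted p = 0.569). The macrophage sums given above, with the limit stated there, separated the genotypes as Sncg did, and their part in its rise was not tested.

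Of the remaining fat-enriched genes, Car3, a carbonic anhydrase that is abundant in adipocytes, showed how probe sets of a gene can differ. Its brightest probe set read 11314, 16576 and 11384 units in wild type and 15930, 10580 and 10439 units in apoE-/- aorta, where wild type replicate 2 was 1.47 times replicate 1. Its 3 dimmer probe sets gave 3.17, 3.44 and 1.86 times for the same arrays. The highest intensity on any probe set of wild type replicate 2 was 19670 units. Log2 changes of the 4 probe sets were all negative, from -0.30 to -0.08. Nnat, the neuronatin gene, was dim at 110.5 to 158.8 units in wild type and 68.2 to 150.3 units in apoE-/- aorta (adjusted p = 0.691). Of the 20 white fat and storage genes tested, 1 was called in the limma fit, and the median log2 change was -0.32. Without wild type replicate 2 the median was -0.05, close to the -0.06 of all genes, and 9 of 20 estimates were positive.

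Enzymes of mitochondrial fatty acid oxidation had the same bright array as the storage and thermogenic genes. Wild type replicate 3 was 1.27 times replicate 1 at their median, against 1.01 times for storage and 1.48 times for thermogenic genes. Acadl, which starts a round of beta-oxidation, read 4241, 8409 and 5908 units in wild type and 6336, 4864 and 5023 units in apoE-/- aorta. Acaa2, which ends a round, read 2203, 5780 and 3362 units in wild type and 3344, 2426 and 2590 units in apoE-/- aorta. Wild type replicate 2 was highest for both and for Hadha and Hadhb, the subunits of the trifunctional protein, and Eci1, an isomerase for unsaturated chains. Hadha ranged from 2399 to 4452 units in wild type and 2288 to 2884 units in apoE-/- aorta. Hadhb read 7322, 9453 and 7765 units in wild type and 8939, 7203 and 7301 units in apoE-/- aorta. Eci1 read 1608, 3772 and 2039 units in wild type and 1992, 1338 and 1569 units in apoE-/- aorta and had the most negative estimate (log2 change -0.52 ± 0.29, SE, limma adjusted p = 0.380). The limma fit called 0 of 5, with 0 at an unadjusted p under 0.05. Their median log2 change was -0.30 with all arrays and 0.02 without wild type replicate 2.

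Thermogenic and white fat genes were set side by side through their median deviations from the 6-array mean. For the thermogenic genes these medians were -0.35, 0.83 and 0.24 on wild type replicates 1, 2 and 3 and 0.02, -0.52 and -0.31 on apoE-/- replicates 1, 2 and 3. For the white fat and storage genes they were -0.20, 0.74 and -0.17 in wild type and 0.08, -0.29 and -0.26 in apoE-/- aorta. Thermogenic minus white was -0.15, 0.09 and 0.42 in wild type and -0.06, -0.24 and -0.05 in apoE-/- aorta. These differences overlapped between the genotypes, and wild type replicate 3 alone lay well above the rest. That array was also the one with skeletal muscle signal, whose part was not tested.

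**Figure D4:**
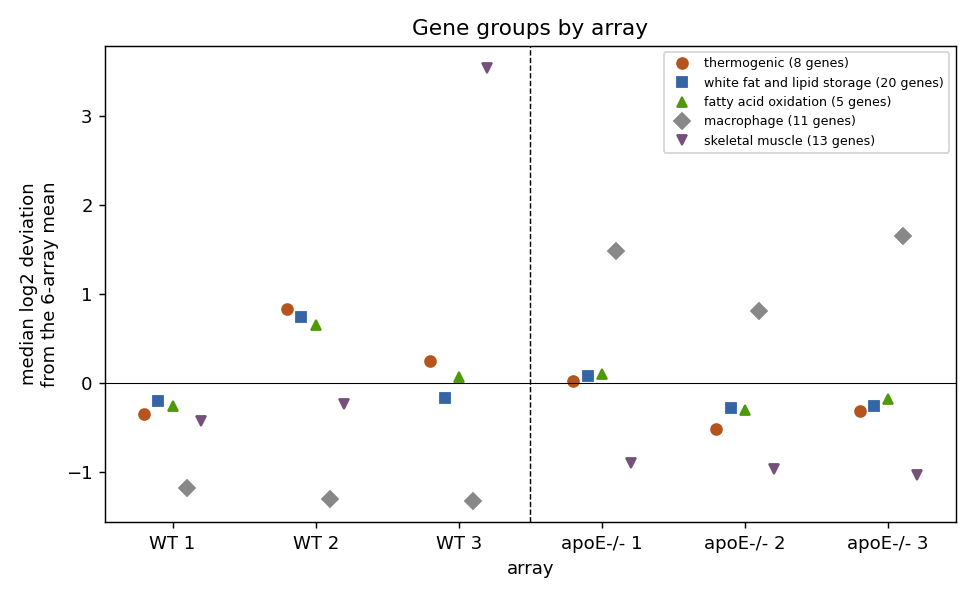
For each array, points give the median over a gene group of log2(intensity + 16) minus the gene's 6-array mean. The 3 fat groups are highest on wild type replicate 2 (0.83, 0.74 and 0.65), macrophage genes are high on all apoE-/- arrays and skeletal muscle genes on wild type replicate 3. Some of the skeletal muscle genes passed the filter only through that array, and the macrophage genes Trem2 and Itgam only through the apoE-/- arrays.

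Further genes of fat, listed apart from the members, had the same bright array. It was highest for 12 of 15 other brown fat genes tested, 10 of 11 other oxidation genes and 17 of 22 other white fat and lipogenesis genes. Pparg, the master regulator of adipocytes, read 348.0, 1104 and 297.5 units in wild type and 643.6, 176.4 and 497.2 units in apoE-/- aorta. The brown fat and oxidation lists held 0 called genes in the limma fit. At an unadjusted p under 0.05 there were 3 of 15 and 2 of 11 genes (20.0% and 18.2%), near the 18.4% of all genes. In the white fat list there were 4 of 22 (18.2%). Fabp3 and Ech1 had the smallest p in the brown fat and oxidation lists (log2 changes of -0.56 and -0.57, adjusted p = 0.128 and 0.149). In the white fat list 1 of 22 fell, Irs1, an adaptor of the insulin receptor, from 2353 ± 363 to 1540 ± 35.0 units (SD, n = 3, log2 change -0.59 ± 0.12, limma adjusted p = 0.0336). With single arrays left out, Irs1 passed only without wild type replicate 3, with adjusted p of 0.112 and 0.0760 without wild type replicates 1 and 2 and 0.115, 0.0600 and 0.116 without apoE-/- replicates 1, 2 and 3, and it did not pass with median centring or without the intensity trend (adjusted p = 0.0753 and 0.0783). Median log2 changes of the 3 lists were -0.30, -0.25 and -0.32, and -0.06, -0.05 and -0.04 without wild type replicate 2.

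Zic1 and Lhx8, which mark interscapular brown fat, were dim throughout, at 28.9 to 69.8 and 12.2 to 110.9 units, and were not tested. The bright array was not shared by genes of adipocyte progenitors. Their 6 tested genes summed to 11734 to 14362 units in wild type and 13408 to 14170 units in apoE-/- aorta, and 1 was highest on wild type replicate 2. The limma fit called 0 of these 6, with 1 (16.7%) at an unadjusted p under 0.05, against 18.4% of all genes. That gene was Zfp423 (log2 change -0.35, limma adjusted p = 0.204). Of the 6 estimates 3 were positive and 3 negative, with a median log2 change of 0.09. Of 10 endothelial genes 9 had positive estimates and 1 was called, Emcn (log2 change 0.76, limma adjusted p = 0.0386). With single arrays left out, Emcn passed only without wild type replicate 2 or without apoE-/- replicate 2. It did not pass with quantile normalization, without the filter or without the intensity trend (limma adjusted p = 0.0511, 0.0626 and 0.0719). In smooth muscle all 10 estimates were negative, against 58.8% of all genes, with a median log2 change of -0.15 and 0 called. Smtn had the smallest p there (log2 change -0.33, limma adjusted p = 0.0825).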

How the data were processed

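Each of 6 arrays had 1 intensity per probe set for 45101 probe sets, deposited by the authors on a linear scale. Trimmed by 2% at each end, the values of all arrays averaged 500.002 units, so the deposited intensities were scaled; the software is not given in the sources used here. Symbols came from the platform annotation, updated by gene identifier (GRCm38.p6). Control probe sets (64) and the lower 40% by mean over all arrays were left out, and each gene was represented by its brightest kept probe set. Log2(intensity + 16) was fitted with limma 3.58.1 in R 4.3.3 (genotype only, intensity trend) and adjusted over 13052 genes. The fit was also run on simulated data with independent noise for each gene and array. That simulation held no shift shared by many genes on a single array, so it does not cover the main feature described here. Exact permutation tests of 3 arrays against 3 were not used, since their smallest two-sided p is 0.1. The small number of arrays limits the precision. The members and lists, and the rule for which values are printed, were chosen with earlier results of these data known. All 39 members are named. Array values are printed for called members, for those with an array over 2 times the next, for hormones and Ucp1, and for the 2 brightest others of each role, with more added after their values were seen. Of the other lists, up to 3 called genes or the smallest p are named. Some genes outside this rule are named as well, among them Pparg, Zic1, Lhx8, Myh4, Tnnc2, Myh11, Itgam and Prph.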

Additional observations from a re-analysis of the deposited data

How the results depend on the processing

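With 3 arrays a genotype and no detection calls, dim genes such as Lep and Nnat are read near background. The number of genes called over the whole array depended on the setting. Rises numbered 416, and 273 without the intensity trend and 678 over probe sets; falls numbered 61, and 40 with median centring, 24 without the trend and 18 with the replicate block. Leaving out single arrays gave 143 to 554 rises and 11 to 141 falls; either count moved by over 1.5 times for each of the 6 arrays, upward only without apoE-/- replicate 2 (141 falls). The count of white fat and storage members called was 1 to 2 in the same leave-one-out fits, 2 being without wild type replicate 1, where Mlxipl passed. The thermogenic and oxidation counts were 0 in all 15 alternatives. Median log2 changes with single arrays left out ranged from -0.81 to -0.24 for thermogenic, -0.52 to -0.05 for white fat and storage, and -0.49 to 0.02 for oxidation genes. The 9 members that changed sign without wild type replicate 2 were not called in either fit. The labels pair no arrays by replicate number. Correlations of same-numbered deviations were -0.117, -0.158 and -0.031, which cannot exclude a pairing with 3 arrays a genotype. The replicate block left the call of every tested member as it was. Irs1, Ryr2 and Emcn, which are no members, lost theirs under it (limma adjusted p = 0.0843, 0.111 and 0.110).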
